A study of Brassica napus with 12 samples.

Results

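The genes described here are the 200 most abundant transcripts of Brassica napus roots that were nearly absent from leaves. Oilseed rape, Brassica napus, is an allotetraploid whose A and C subgenomes often hold related copies of a gene. A gene qualified when its mean level over the 6 leaf libraries was under 0.5 CPM (reads per 1000000 gene reads of the library), which held for 11870 of 52962 gene identifiers. Of these, the 200 with the highest mean over the 6 root libraries were taken. The members were thus chosen by their levels in these same root and leaf libraries, which are given as a description, with no test between organs.

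The study asked which root and leaf transcripts differ after silicon supply. Wild-type plants of the variety Citizzen, grown in a greenhouse in aerated nutrient solution, were given Si (1.7 mM, as sodium metasilicate) or no Si (3.4 mM NaCl, to match the sodium) for 1 week from the emergence of the fourth leaf. The groups were root Si, root no Si, leaf Si and leaf no Si, with 3 libraries each, and all plants shared the base solution. No-Si plants alone received the added chloride, so its effect and that of withheld Si cannot be told apart. The labels give 21 March as the planting date of every root Si library and of leaf Si replicates 1 and 2, and 12 February for the others, with harvest on 28 March for all. The leaf libraries are labelled as mature leaf of aerial tissue. With 4 days of germination, 1 week of supply from the fourth leaf cannot fit between a planting on 21 March and harvest. The date of 21 March lies 1 week before harvest, which is the stated length of supply. What the 21 March label marks is uncertain. In roots the labelled date and the treatment cannot be told apart. The labels call the replicates biological without saying how many plants each held, so the p-values measure the spread between these libraries.

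Roots take up water and mineral nutrients through the epidermis and its hairs, and the endodermis inside them seals the path to the xylem with the Casparian strip and suberin. Transcripts typical of roots therefore include uptake transporters and channels, wall and suberin enzymes, secreted peroxidases and defence proteins. Leaves, which carry out photosynthesis, make little of many of these transcripts. Brassicas take up little silicon compared with grasses, whose roots carry dedicated silicic acid channels. These statements are background: the files pair no gene name or function with an identifier. In the RefSeq table given for the Da-Ae genome, 5 of the 200 identifiers were matched, all as protein-coding genes with no other name, so the members are given by identifier, and named markers could not be used to check the organ labels.

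Libraries held 15616881 to 19330076 gene reads in roots and 14429867 to 21792206 in leaves. The members had 1989024 reads over the root libraries and 4445 over the leaf libraries. They made up 1.87%, 1.87% and 1.97% of gene reads in Si roots and 1.99%, 1.90% and 1.93% in no-Si roots. Si roots averaged 1.90 ± 0.0554% and no-Si roots 1.94 ± 0.0438% (SD, n = 3 each), a difference of −0.0389 percentage points (two-sided exact permutation p = 0.4, where 3 against 3 cannot go below 0.1). The shares of Si and no-Si roots overlapped. In this bulk tissue, fewer cells of a type and less RNA per cell cannot be told apart.

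Member levels in roots ran from 40.9 to 531 CPM with a median of 69.9 CPM, and 67 members were above 100 CPM. CPM does not account for transcript length, so this order is one of read share and not of transcript number. The 10 highest members held 16.7% and the 50 highest 48.9% of the summed member level. The decline along the ranking was thus gradual, with no single transcript holding most of the reads.

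The first 2 members, BnaCnng08320D and BnaCnng27420D, carry identifiers of the C subgenome without a chromosome. BnaCnng08320D had 481, 539.8 and 463 CPM in Si roots, against 542, 459 and 698 CPM in no-Si roots. In leaves it had 0.404, 0.751 and 0.0492 CPM in Si leaves and 0.229, 0.693 and 0.537 CPM in no-Si leaves. Every root library was thus far above every leaf library. BnaCnng27420D had 403, 303 and 291 CPM in Si roots, against 317, 544 and 461 CPM in no-Si roots. Its Si and no-Si libraries overlapped, and its highest value was in no-Si replicate 2. BnaC05g36780D, on C05, was the most even of the first 3, with 381, 401 and 377 CPM in Si roots, against 313, 397 and 390.1 CPM in no-Si roots. It also had the highest mean leaf level of all members, at 0.497 CPM.

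A05 held 4 of the 10 highest members, and C03 held 2. On A05, BnaA05g29170D had 347, 355 and 364 CPM in Si roots, against 428, 341 and 253 CPM in no-Si roots. BnaA05g33880D had 409.9, 360.5 and 277 CPM in Si roots, against 337, 263 and 275 CPM in no-Si roots. For both genes the groups overlapped. BnaA05g25230D had 285, 328 and 225 CPM in Si roots, against 268, 165 and 239 CPM in no-Si roots. BnaA05g23650D had 208, 207 and 219 CPM in Si roots, against 189, 269 and 276 CPM in no-Si roots. Here too each group reached into the other's range. On C03, BnaC03g33490D had 326, 384 and 377 CPM in Si roots, against 314, 187 and 292 CPM in no-Si roots. BnaC03g62130D had 262, 289.8 and 214 CPM in Si roots, against 233, 130.3 and 237 CPM in no-Si roots. In both C03 genes the lowest library was no-Si replicate 2, and in BnaC03g33490D all Si values lay above all no-Si values. BnaC06g39280D, on C06, had 222, 197 and 186 CPM in Si roots, against 394, 224 and 175 CPM in no-Si roots, and its highest library was no-Si replicate 1.

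**Figure D1:**
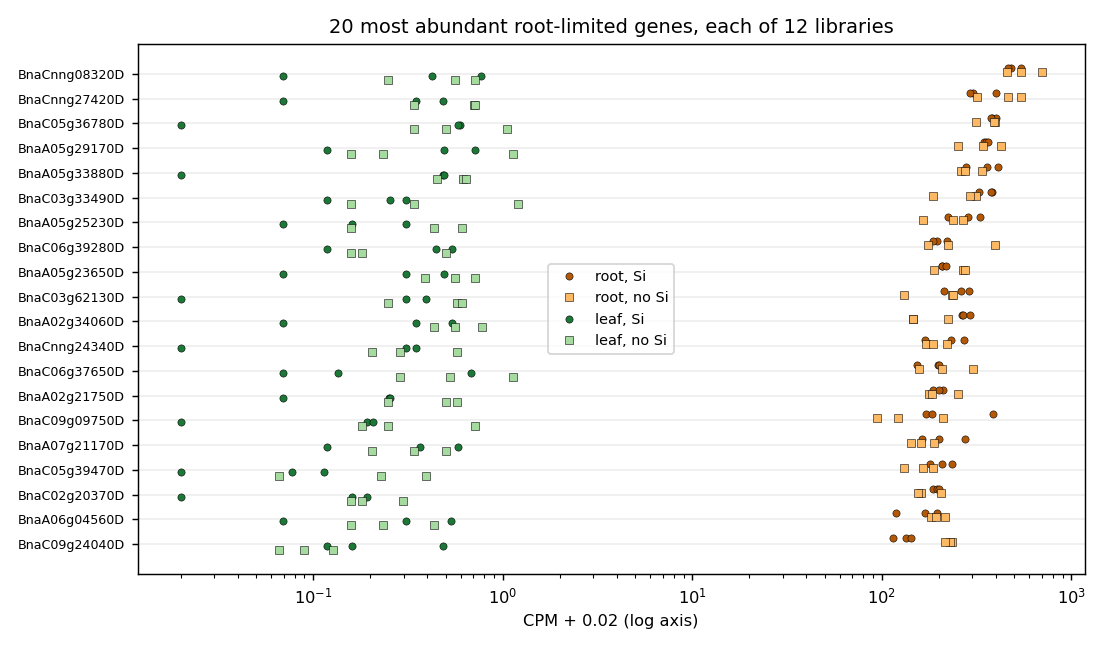
Level of the 20 highest members in each of the 12 libraries (x axis, CPM + 0.02 on a log axis; 1 row per gene; circles Si, squares no Si; brown roots, green leaves). All root values lie to the right of all leaf values, and the 7 genes with a leaf value of 0 CPM have it in leaf Si replicate 3.

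At the edge of the ranking, BnaCnng14150D (40.967 CPM) and BnaC08g22760D (40.949 CPM) were the last members, and BnaA05g35900D (40.894 CPM) and BnaCnng45890D (40.701 CPM) the first genes left out. At the leaf limit, BnaC05g36780D (0.497 CPM in leaves), BnaA04g18560D (0.475 CPM) and BnaA10g01510D (0.470 CPM) were just inside. BnaA10g19630D (0.516 CPM in leaves), BnaC01g15480D (0.532 CPM) and BnaA01g24790D (0.543 CPM) were just outside, with 54.4, 104 and 41.3 CPM in roots. Genes on both sides of either limit thus had nearly the same levels. Of the 6180 genes at least as abundant in roots as the lowest member, 200 (3.24%) were under 0.5 CPM in leaves, 447 (7.23%) stood from 0.5 to under 5 CPM, 3997 (64.7%) from 5 to under 50 CPM and 1536 (24.9%) at 50 CPM or more.

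The members were spread over both subgenomes and all 19 numbered chromosomes. A identifiers made up 96 members and C identifiers 104, or 48% and 52%, beside 48.3% and 51.4% of all identifiers. C genes held 53.9% of the summed root level. Relative to the genes at least as abundant in roots, members made up from 1.87% (8 of 427 on A03) to 5.20% (13 of 250 on A05) of a chromosome. C03 and the unplaced C identifiers held the most members, 16 each. Of the 5 identifiers in the RefSeq table, BnaA06g30740D is placed on C7 in the Da-Ae assembly and not on A06, whereas BnaC04g03440D, BnaC06g02520D, BnaC04g26560D and BnaA01g12350D are on the chromosome that the identifier gives.

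The levels of these 5 differed in how evenly the root libraries shared them. BnaC04g03440D had 99.8, 64.7 and 113 CPM in Si roots, against 76.2, 36.4 and 79.8 CPM in no-Si roots. BnaC06g02520D had 64.9, 64.2 and 97.1 CPM in Si roots, against 68.3, 53.0 and 119 CPM in no-Si roots. BnaC04g26560D had 65.4, 66.4 and 78.3 CPM in Si roots, against 62.8, 34.7 and 48.6 CPM in no-Si roots. The groups of the first 2 overlapped, and no-Si replicate 2 was the lowest library of all 3. BnaA01g12350D had 62.5, 53.7 and 90.0 CPM in Si roots, against 43.7, 38.0 and 45.3 CPM in no-Si roots, with all Si values above all no-Si values. BnaA06g30740D had 27.7, 6.74 and 49.9 CPM in Si roots, against 130.1, 19.4 and 28.0 CPM in no-Si roots, with a coefficient of variation of 102% over the 6 libraries.

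Neighbouring members were few. Counting places in the deposited gene order, 6 pairs of members lay within 5 places of each other on a numbered chromosome, and 1 pair was adjacent. The adjacent pair was BnaA08g15060D and BnaA08g15080D. BnaA08g15060D had 63.5, 52.1 and 81.9 CPM in Si roots, against 79.1, 111 and 82.7 CPM in no-Si roots. BnaA08g15080D had 129, 123 and 95.7 CPM in Si roots, against 97.7, 91.1 and 109 CPM in no-Si roots. Their libraries did not follow each other: no-Si replicate 2 was the highest library of the first gene and the lowest of the second. Among 352 genes listed next to a member, 15 (4.26%) had at least 10 CPM in roots and under 0.5 CPM in leaves, beside 904 of all 52962 identifiers (1.71%).

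The other 5 pairs lay 2 to 5 places apart. BnaC06g39250D had 53.6, 38.8 and 41.1 CPM in Si roots, against 136, 67.4 and 41.0 CPM in no-Si roots. Its partner BnaC06g39280D, given above, was likewise highest in no-Si replicate 1. BnaC04g03560D had 126, 137 and 83.8 CPM in Si roots, against 95.3, 48.3 and 105 CPM in no-Si roots. Its partner BnaC04g03440D was lowest in the same library, no-Si replicate 2. BnaA02g21660D and BnaA02g21750D had log2 fold changes with Si of 0.16 and −0.056, and BnaA04g10770D and BnaA04g10820D of −0.11 and −0.34 (edgeR, none passing).

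Every member had reads in every root library, with 55 reads as the lowest count. None was without reads in leaves: leaf reads per member, summed over 6 libraries, ran from 1 to 55 with a median of 20. The lowest root library was above the highest leaf library in all 200, as the choice of members largely fixes. The mean leaf level was 0.0182% to 1.16% of the mean root level, with a median of 0.175%.

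The summed leaf level of the members differed between libraries. It was 41.8, 48.9 and 16.3 CPM in Si leaves, against 37.5, 58.6 and 36.8 CPM in no-Si leaves. Leaf Si replicate 3 stood apart, with 331 member reads where the other leaf libraries had 685 to 1041. In it 96 members had no read, against 11 to 33 in the other 5. It is the Si library labelled with the planting date of the no-Si plants, and the part of that label was not tested. The mean share of gene reads was 0.00357 ± 0.00171% in Si leaves and 0.00443 ± 0.00124% in no-Si leaves (SD, n = 3 each; two-sided exact permutation p = 0.6). Without that replicate it was 0.00453 ± 0.000497% in Si leaves (n = 2), against the same 0.00443% in no-Si leaves (exact permutation p = 1).

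The most abundant members had few reads in that library. The 10 highest root members together had 10 reads in leaf Si replicate 3, or 0.0153% of their root level, against 65 to 108 reads and 0.0928% to 0.233% in the other leaf libraries. Across the 200 members the leaf level followed the root level weakly in the other 5 libraries, with Spearman's rho from 0.172 to 0.462, and not in leaf Si replicate 3, where rho was −0.128. These are correlations across genes of 1 library, which share its depth, and the rule limits the leaf values to low levels.

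The 20 members with the most reads in leaf Si replicate 3 held 48.3% of its member reads. First among them was BnaA09g14180D, with 4, 5 and 18 reads in Si leaves and 7, 7 and 7 in no-Si leaves. Next was BnaC03g42290D, with 4, 11 and 14 reads in Si leaves and 2, 4 and 6 in no-Si leaves. In BnaA09g14180D leaf Si replicate 3 was the highest leaf library. In all, 17 members were at or above the mean of the other 5 leaf libraries there, and 183 were below it. These genes were chosen after their values were seen.

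**Figure D2:**
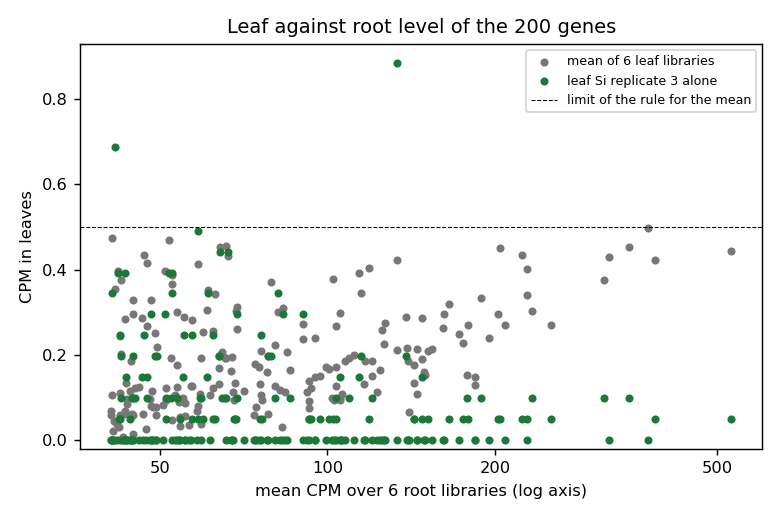
Level of each of the 200 members in leaves (y axis, CPM) against its mean level in roots (x axis, CPM, log axis); grey, mean of the 6 leaf libraries; green, leaf Si replicate 3 alone; dashed line, the limit of 0.5 CPM for the mean. Among the most abundant members the green points lie at or near 0, while BnaA09g14180D (0.885 CPM) and BnaC03g42290D (0.688 CPM) are the highest.

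The same rule with the organs exchanged gave 200 genes abundant in leaves and under 0.5 CPM in roots. Their summed level in roots, as a share of their leaf mean, was 0.138%, 0.209% and 0.0586% in Si replicates 1, 2 and 3, against 0.159%, 0.333% and 0.127% in no-Si replicates 1, 2 and 3. The root-limited genes in leaves stood at 0.218%, 0.254% and 0.0847% of their root mean in Si replicates 1, 2 and 3, against 0.195%, 0.305% and 0.191% in no-Si replicates 1, 2 and 3. In both organs no-Si replicate 2 was the highest, Si replicate 2 the second and Si replicate 3 the lowest. No-Si replicate 2 was also the leaf library with the most unmapped reads, 15.6% against 5.36% to 6.23% in the other leaf libraries. In roots no-Si replicate 2 had 7.04% unmapped reads, fewer than any Si root library. Si replicate 3, the lowest in roots above, had the most, 9.51%. The part of unmapped reads in these low levels was not tested.

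**Figure D3:**
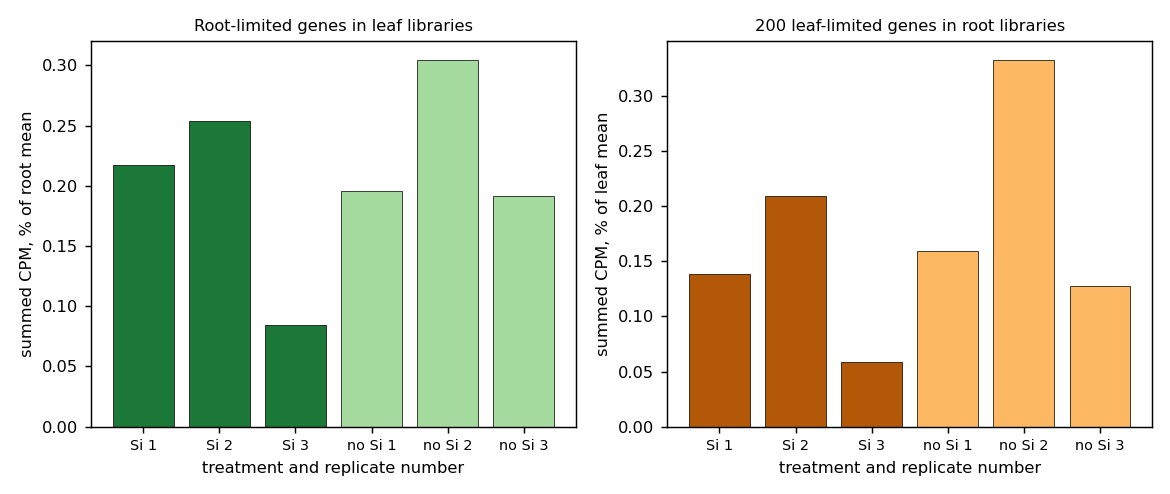
Summed level of the root-limited genes in each leaf library, as a percentage of their mean summed level in roots (left), and of 200 leaf-limited genes in each root library, as a percentage of their mean in leaves (right); 1 bar per library. In both panels no-Si replicate 2 is the highest bar (0.305% and 0.333%) and Si replicate 3 the lowest (0.0847% and 0.0586%).

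The rule was also applied to 1 treatment at a time, and the levels of its genes were read in the other treatment. Applied to the 6 no-Si libraries alone, the rule chose 200 genes, of which 179 were members. In the Si libraries, which that choice did not use, 196 of these 200 were again under 0.5 CPM in leaves, and in all but 1 every root library was above every leaf library. Applied to the 6 Si libraries alone, it also chose 179 members among its 200. In the no-Si libraries 182 of those 200 were under 0.5 CPM in leaves, with 1.23 CPM as the highest, and in all 200 every root library was above every leaf library.

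Si and no-Si roots were then compared. The choice of members used the mean over both root groups and not their difference. A gene near the lower limit of 40.9 CPM could still enter through the group where it was high. The choice can thus shape the differences given here. No member passed in roots by edgeR (0 of 200; quasi-likelihood test, Benjamini-Hochberg adjusted over 42536 genes), where 0.00235% of all genes tested passed, a single gene that is no member. Across the members the log2 fold change ran from −1.59 to 1.31. Its median was −0.011, with 96 members above 0 and 104 below, beside a median of 0.0034 over all genes tested. The median's sign turned with library totals in place of TMM scaling (0.015, beside 0.030 over all genes) and without Si replicate 1 (0.0099). All 200 members passed the filter on low counts. Unmapped reads were more frequent in Si roots (8.62 ± 0.772%) than in no-Si roots (6.85 ± 0.247%; SD, n = 3 each), without overlap, and their part in these differences was not tested.

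At looser criteria the members' counts were set beside those of other genes. An unadjusted p under 0.05 (edgeR) was reached by 53 of 200 members, 26.5%, and by 33 (without Si replicate 2) to 79 (without no-Si replicate 3) on leaving out 1 library. Over all genes tested it was 8.86%, and over 5980 other genes at least as abundant in roots as the lowest member it was 10.1%. Of the members 22 (11%) were higher with Si at this threshold, beside 3.52% of all genes and 2.88% of the other abundant genes. Lower with Si were 31 members (15.5%), beside 5.34% of all genes and 7.21% of the other abundant genes. In 44 members (22%) the Si and no-Si libraries did not overlap, beside 13.2% of all genes tested and 14.5% of the other abundant genes. Si lay higher in 21 of these (10.5%), beside 7.49% of all genes and 7.41% of the other abundant genes, and lower in 23 (11.5%), beside 5.73% and 7.11%. A fold past 1.5 in either direction was fitted for 45 members (22.5%), beside 6.47% of all genes and 3.43% of the other abundant genes. A fold past 2 was fitted for 13 members (6.5%), beside 1.48% and 0.602%. DESeq2 passed 16 members (8%), 5 higher and 11 lower, at an adjusted p under 0.05, beside 1.08% of all genes tested and 2.11% of the other abundant genes. These shares are descriptions, and the difference between members and other genes was not tested.

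The 2 members with the smallest p among those higher with Si were both on A09. BnaA09g17260D had 47.1, 69.2 and 65.0 CPM in Si roots, against 29.3, 29.4 and 28.4 CPM in no-Si roots. All Si values lay above all no-Si values. It averaged 60.4 ± 11.8 CPM with Si and 29.0 ± 0.532 CPM without (SD, n = 3 each), with a log2 fold change of 1.03 (SE 0.14), for which edgeR's adjusted p was 0.103. Its no-Si mean lay under 40.9 CPM, the lowest mean root level of a member, so it entered the list through the Si group. BnaA09g14180D had 141, 172 and 189 CPM in Si roots, against 87.9, 95.1 and 114 CPM in no-Si roots. The groups did not overlap here either. It averaged 168 ± 24.6 CPM with Si and 99.2 ± 13.7 CPM without (SD, n = 3 each), with a log2 fold change of 0.73 (SE 0.14), for which edgeR's adjusted p was 0.217. DESeq2 gave adjusted p-values of 1.75e-06 for BnaA09g17260D and 0.000775 for BnaA09g14180D.

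The 2 members with the smallest p among those lower with Si were BnaA09g21850D and BnaC02g16150D. BnaA09g21850D had 103, 91.5 and 88.5 CPM in Si roots, against 184, 227 and 165 CPM in no-Si roots. All Si values were below all no-Si values. It averaged 94.5 ± 7.91 CPM with Si and 192 ± 32.2 CPM without (SD, n = 3 each), with a log2 fold change of −1.05 (SE 0.15), for which edgeR's adjusted p was 0.103. BnaC02g16150D, with little spread inside either group, had 48.5, 53.7 and 49.8 CPM in Si roots, against 79.2, 75.6 and 77.2 CPM in no-Si roots. It averaged 50.6 ± 2.69 CPM with Si and 77.3 ± 1.82 CPM without (SD, n = 3 each), with a log2 fold change of −0.64 (SE 0.094), for which edgeR's adjusted p was 0.112. DESeq2 gave adjusted p-values of 1.07e-07 for BnaA09g21850D and 3.85e-05 for BnaC02g16150D.

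In all 16 members that passed by DESeq2, the Si and no-Si libraries did not overlap. Both results come from the same 6 root libraries, so the lack of overlap is no separate support. The 5 higher with Si were BnaA09g17260D, BnaA09g14180D, BnaA05g30950D, BnaC07g33110D and BnaA02g34060D. Among the 11 lower with Si, the 3 given next were chosen after their values were seen. BnaC03g30370D had the most negative log2 fold change of the 16, with 42.7, 23.96 and 42.3 CPM in Si roots, against 67.9, 117 and 94.8 CPM in no-Si roots. It fell by DESeq2 (adjusted p = 1.80e-05), whereas the log2 fold change was −1.38 (SE 0.27), for which edgeR's adjusted p was 0.262. Its Si mean of 36.3 CPM lay under 40.9 CPM, the lowest mean root level of a member, so it entered the list through the no-Si group. Its neighbour BnaC03g30410D, also a member, had 126, 133 and 139 CPM in Si roots, against 105, 85.3 and 158 CPM in no-Si roots, with a log2 fold change of 0.17. BnaC05g48680D had 98.6, 75.6 and 94.0 CPM in Si roots, against 159.5, 255 and 153 CPM in no-Si roots, with no-Si replicate 2 far above the rest. BnaC09g24040D was more even inside both groups, with 134, 114 and 142 CPM in Si roots, against 234, 229 and 217 CPM in no-Si roots. DESeq2 gave adjusted p-values of 9.73e-05 for BnaC05g48680D and 8.02e-07 for BnaC09g24040D.

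The edgeR count rested on 1 library. Without no-Si replicate 3, 3 members passed (edgeR, Benjamini-Hochberg): BnaA09g21850D (log2 fold change −1.16, adjusted p 0.0346), BnaC03g53920D (1.06, adjusted p 0.0320) and BnaC01g21880D (−1.08, adjusted p 0.0346). Over all genes that fit passed 36 of 43033, against 1 of 42536 with all 6 libraries. BnaC03g53920D had 111, 119.9 and 111 CPM in Si roots, against 49.9, 56.4 and 121 CPM in no-Si roots. BnaC01g21880D had 46.1, 39.3 and 43.0 CPM in Si roots, against 92.7, 82.8 and 38.9 CPM in no-Si roots. In both, no-Si replicate 3 lay just beyond the Si values, and the other no-Si libraries lay apart from them. With all 6 libraries their log2 fold changes were 0.58 (SE 0.30; adjusted p = 0.675) and −0.78 (SE 0.31; adjusted p = 0.546) by edgeR with Benjamini-Hochberg adjustment. Leaving out any other library passed 0 members.

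The medians of the members differed in sign between chromosomes. The 16 members on C03 had a median log2 fold change of −0.14 (5 higher, 11 lower), beside −0.11 over all C03 genes tested. The 10 on C04 had the highest median, 0.41 (6 higher, 4 lower), beside 0.025 over all C04 genes tested. The 13 on A05 had a median of 0.23 (9 higher, 4 lower), beside 0.0010 over all A05 genes. The 16 unplaced C members had the lowest, −0.24 (5 higher, 11 lower), beside 0.017 over all unplaced C genes. The 96 A members had a median of 0.041 and the 104 C members one of −0.065. In no chromosome did a member pass by edgeR, so these medians are descriptions.

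**Figure D4:**
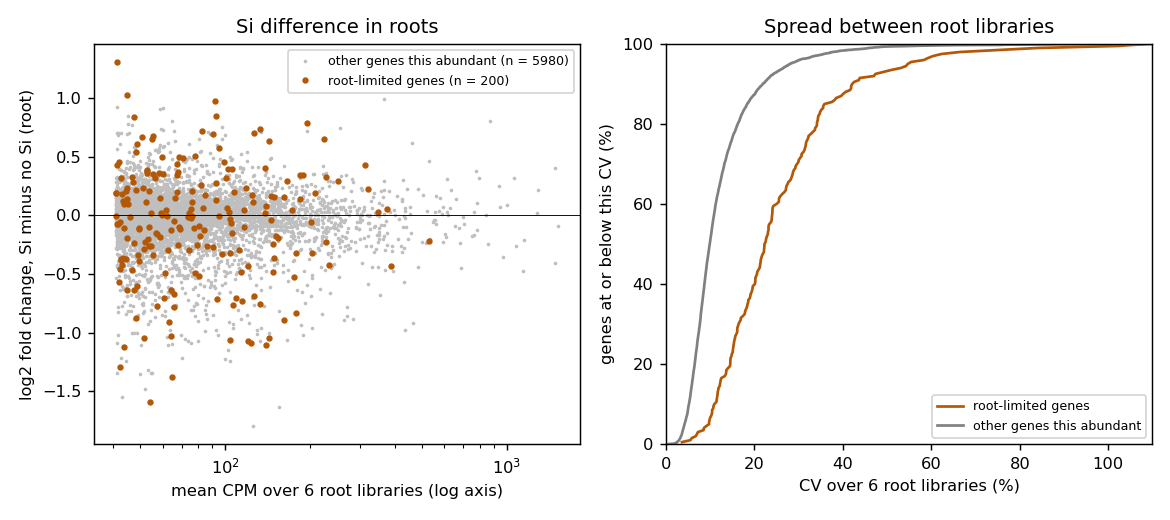
Left, log2 fold change with Si in roots (y axis, Si minus no Si, edgeR) against the mean root level (x axis, CPM, log axis) for the 200 members (brown) and 5980 other genes at least as abundant as the lowest member (grey). Right, the percentage of genes (y axis) at or below a given coefficient of variation over the 6 root libraries (x axis, %), where the members' median is 22.4% and that of the other genes 9.90%.

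Members varied widely between root libraries. The rule did not read this spread, but 1 high library can lift a gene's mean over the lower limit, so the choice can add uneven genes. The coefficient of variation over the 6 root libraries had a median of 22.4% among the members, from 11.3% at the 10th to 42.1% at the 90th percentile. Among the 5980 other genes as abundant in roots, the median was 9.90%, from 5.21% to 21.9%. Inside the treatment groups, with their means removed, the median was 19.8% for members and 9.54% for the others. A coefficient above 50% was found in 14 members (7%) and in 39 of the others (0.652%). The absolute log2 fold change with Si had a median of 0.30 in members and 0.092 in the others.

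Among the members, no-Si replicate 2 departed most from the other root libraries. It was the lowest root library for 62 members and the highest for 44, and its typical departure from the member's median over the 6 libraries was 0.33 on the log2 scale. In the other root libraries that departure was 0.11 to 0.21. No-Si replicate 2 was the lowest library for 31% of members, against 19.2% of the other abundant genes, and the highest for 22% against 19.1%. Among those other genes no-Si replicate 1 departed most (0.103, against 0.0922 for no-Si replicate 2) and was most often the lowest (25.8%). On the first principal component of the members, with 52.2% of the variance, no-Si replicate 2 lay at −7.58. Si replicates 1, 2 and 3 lay at 1.21, 5.15 and 3.53, and no-Si replicates 1 and 3 at −1.98 and −0.32. Without no-Si replicate 2, 40 members had an unadjusted p under 0.05 by edgeR (18 higher, 22 lower), against 53 with it, and none passed after adjustment. The count was lower still without Si replicate 2, at 33.

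The members given next had the 2 largest coefficients of variation or the 6 lowest ratios of the lowest root library to the median of the 6. BnaC03g74320D, with the largest coefficient of variation at 108%, had 28.1, 23.8 and 31.3 CPM in Si roots, against 174, 35.6 and 32.7 CPM in no-Si roots. Only no-Si replicate 1 was high, and it gave the most negative log2 fold change of all members, −1.59 (SE 0.76; edgeR adjusted p = 0.652). The other root libraries of BnaC03g74320D lay under 40.9 CPM, the lowest mean root level of a member, so it entered through that 1 library. BnaA06g30740D, given above, was likewise highest in no-Si replicate 1. BnaA04g25230D had 76.2, 94.7 and 81.2 CPM in Si roots, against 123, 19.8 and 30.2 CPM in no-Si roots. It was high in no-Si replicate 1 and in all Si libraries, and low in the other no-Si libraries.

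BnaC02g42920D had the lowest ratio of lowest library to median, 0.0466, with 52.4, 97.4 and 85.0 CPM in Si roots, against 101, 3.48 and 64.3 CPM in no-Si roots. Its no-Si replicate 2 was the lowest value of any member in a root library. BnaA03g50570D had 59.2, 83.6 and 35.7 CPM in Si roots, against 44.3, 10.9 and 14.6 CPM in no-Si roots, and its log2 fold change of 1.31 (SE 0.63; edgeR adjusted p = 0.657) was the highest of all members. BnaC04g00700D had 116, 139 and 113 CPM in Si roots, against 65.0, 27.9 and 91.2 CPM in no-Si roots. In these 3 genes no-Si replicate 2 was the lowest library. BnaCnng03960D had 67.6, 20.9 and 40.5 CPM in Si roots, against 165, 69.7 and 20.6 CPM in no-Si roots, and was again highest in no-Si replicate 1.

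**Figure D5:**
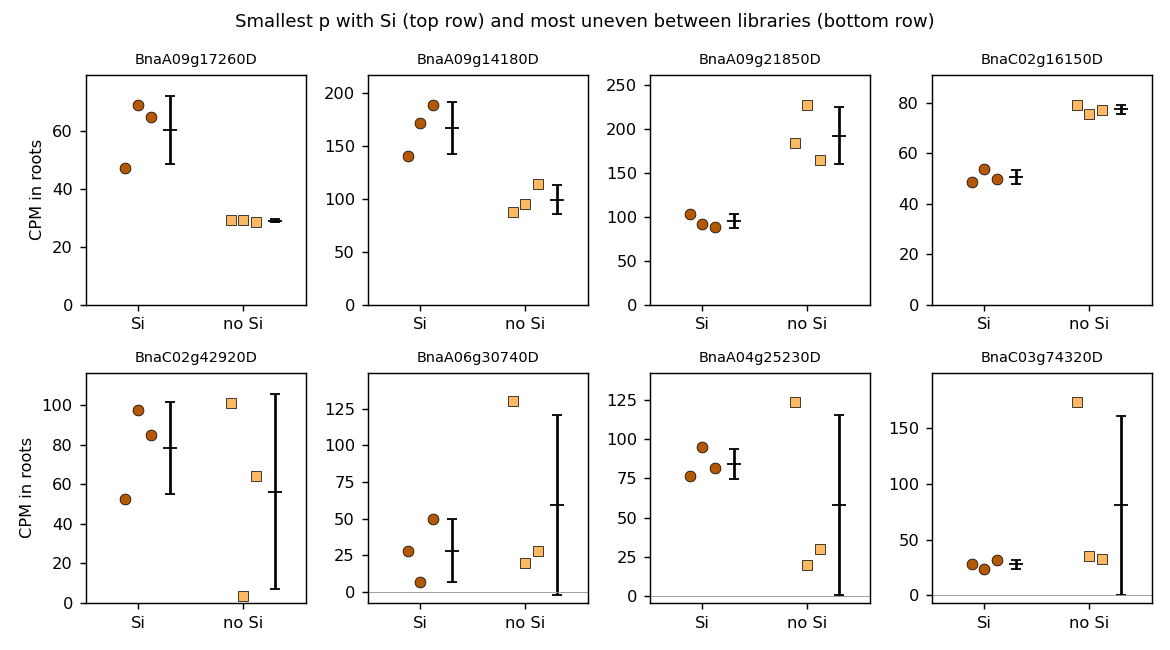
Level in roots (y axis, CPM) of 8 members in the Si libraries (circles) and no-Si libraries (squares), with the mean and SD (bars, n = 3) beside each group. In the top row, the 2 genes with the smallest p in each direction, the groups do not overlap; in the bottom row, 4 of the genes with the largest coefficient of variation or the lowest ratio of lowest library to median, no-Si libraries lie far from each other.

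In leaves only 4 members had enough reads to be tested for Si (BnaA02g34060D, BnaC04g02750D, BnaC05g36780D and BnaCnng08320D). The adjusted p was 1.00 for all 4 (edgeR, with Benjamini-Hochberg adjustment across 41051 leaf genes, of which 0.00731% passed). Their fitted log2 fold changes were −0.96, −1.49, −0.69 and −0.27. All 4 were thus lower in Si leaves in the fit, where leaf Si replicate 3 had the low member reads described above. The smallest unadjusted p was 0.0171, for BnaC04g02750D (edgeR).

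Reads from the opposite strand were rare on the members in roots, at 0.142% to 0.294% of their stranded reads, beside 0.389% to 0.677% over all genes. In leaves 30 members had any opposite-strand read, and the 4 with the most were named after their values were seen. BnaA07g37720D had the most. In roots it had 6874 sense and 416 opposite-strand reads over 6 libraries. In leaves it had 51 sense and 1189 opposite-strand reads, with opposite-strand reads of 189, 227 and 231 in Si leaves and 268, 127 and 147 in no-Si leaves. It held 77.9% of the 1527 opposite-strand reads of all members in leaves. BnaC01g22500D had 98 opposite-strand and 13 sense reads in leaves, BnaC08g43690D had 70 and 16, and BnaA02g18690D had 64 and 8. In all 4 genes opposite-strand reads outnumbered sense reads in leaves, and sense reads outnumbered opposite-strand reads in roots. The rule keeps sense reads low in leaves and high in roots, and these 4 had the most opposite-strand reads in leaves. The choice of genes thus largely fixes this contrast.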

How the data were processed

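RNA of roots and leaves was poly(A)-selected and sequenced as stranded paired-end TruSeq libraries, per the labels' protocols. The authors deposited, per library, whole-number counts for 52962 gene identifiers on either strand, forward and reverse. The aligners TopHat2 and Bowtie2 appear in the submitters' processing notes. Which build, annotation and counter were used is not given in the sources used here. Multimapping reads were counted apart from genes, per the file headers, so a level of an A or C copy with a near-identical partner is uncertain. No gene name is paired with an identifier, so no pathway list or marker list could be applied.

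The reverse column was used as the sense count. CPM is the count per 1000000 gene reads. Non-gene lines (unmapped 5.36% to 15.6%, multimapping 7.73% to 9.66%, outside genes 7.26% to 15.1%, ambiguous 0.0777% to 0.113% of reads) stayed out of totals and tests. Si and no Si were compared over the 6 root libraries with edgeR 4.0.16 (R 4.3.3; TMM, filterByExpr, robust quasi-likelihood, two-sided, threshold 0.05 after Benjamini-Hochberg adjustment). Standard errors were derived from the F statistic. Alternatives were DESeq2 1.42.0, other scalings and filters, limma-voom (limma 3.58.1), the strand column, a replicate block and the removal of each library. Members and lists were chosen with earlier results of these data known. Named genes are the 10 highest members, the 2 smallest p in each direction, the 6 with the lowest ratio of lowest root library to root median, the 2 with the largest coefficient of variation, the edges of the rule, those in the RefSeq table and adjacent members; others are said to be chosen after their values were seen, as were those passed without 1 library. The number of libraries and counting error limit the precision, and counts of reads without molecular identifiers are not independent molecules.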

Additional observations from a re-analysis of the deposited data

Results flagged for a closer look

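Unmapped reads enter no gene comparison. Their share was 8.62 ± 0.772% in Si roots and 6.85 ± 0.247% in no-Si roots (SD, n = 3 each), and every Si root library was above every no-Si root library. What these reads are was not analysed here.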

How the results depend on the processing

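The count of members passing for Si in roots was 0 by edgeR with RLE factors, with library totals, without the filter on low counts, with both strands, with all 12 libraries in 1 fit and by limma-voom. It was 16 by DESeq2, which passed 461 genes in all against 1 by edgeR. On leaving out each root library it ran from 0 to 3, the count over all genes from 1 to 36 and the median log2 fold change of the members from −0.084 to 0.0099, with the lowest without Si replicate 3. The number of genes passing over all genes was 36 on removing no-Si replicate 3, 4 on removing no-Si replicate 1, 1 on removing Si replicate 2 and 2 on removing any other. Over those 6 fits 33 to 79 members had an unadjusted p under 0.05, against 53 with all libraries; 33 is the count without Si replicate 2. The cause was not tested.

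Replicate numbers are shared between the groups. Deviations of same-numbered Si and no-Si roots correlated at 0.087, 0.069 and 0.18 over genes. Si replicates 2 and 3 correlated best with their own number, and Si replicate 1 with no-Si replicate 2 (0.12). The other differently numbered pairs ran from −0.22 to 0.016. Whether equal numbers mark a pairing was not tested. With the replicate block 0 members passed (1 gene in all), and 60 had an unadjusted p under 0.05. BnaA09g17260D, BnaA09g14180D, BnaA09g21850D and BnaC02g16150D kept their direction under every alternative. Their choice by smallest p, with groups that did not overlap, largely fixes this. Of the 200 members, 49 were chosen with a leaf limit of 0.1 CPM, 147 with 1 CPM, 197 on both strands, 192 without leaf Si replicate 3 (added after seeing the data) and 184 to 191 without 1 replicate number. Reads per member in leaves, at most 55 over 6 libraries, limit any statement on leaf levels of a single member.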

Other observations

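BnaA05g03440D, which ranks 331 by the rule, had 5.59, 0.111 and 0.959 CPM in Si roots, against 138, 13.9 and 3.20 CPM in no-Si roots. It was among the 200 when the rule read the no-Si libraries alone. It was the 1 gene of those 200 whose Si root libraries did not all lie above its Si leaf libraries. BnaA06g25530D, at rank 253, had 35.6, 5.79 and 12.7 CPM in Si roots, against 108, 36.6 and 8.07 CPM in no-Si roots. Both genes were highest in no-Si replicate 1, as were the members BnaC03g74320D, BnaA06g30740D and BnaCnng03960D. These genes were chosen after their values were seen.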
